A study of Mus musculus with 4 samples.

Results

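Mitochondrially encoded transcripts are the RNAs copied from the mitochondrion's own circular genome. They were taken as the listed genes whose Ensembl ID has a GENCODE M21 symbol starting with mt-, which gave 37 of the 38282 genes listed: 13 mRNAs, 2 ribosomal RNAs (rRNAs) and 22 transfer RNAs (tRNAs). RNA came from naive CD4+ T cells of C57BL/6 mouse spleen, cultured under the Th0 condition (activation without lineage-steering cytokines) with dopamine (Th0+Dopa) or without it (Th0). Each group held 2 libraries, numbered 2 and 3, and all cultures were harvested on day 4. Dose and timing of dopamine were not given in the sources used here. The labels do not tie libraries to cultures or animals. The p-values of the main fit reflect how far the differences in the 2 deposited tables disagree, weighed with the spread of other genes. Such disagreement may have technical reasons.

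The mitochondrial genome is transcribed as long RNAs from both strands, which are cut at the tRNAs into separate mRNAs, rRNAs and tRNAs. Its mRNAs encode core subunits of complexes I, III and IV of the respiratory chain and of ATP synthase, while the remaining subunits, the RNA polymerase and the processing enzymes are encoded in the nucleus. Activated T cells are known to enlarge their mitochondria and to depend on respiration for proliferation.

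A stretch of the mouse mitochondrial genome also lies in the nuclear genome, and this divides the 13 mRNAs. On GRCm38, 7 annotated pseudogenes at chr1:24611535-24616188 (minus strand) match parts of chrM:6390-11042. Identities over the aligned parts are at least 99.7%, and a full 100% for 5 of them. The bases between these parts were not compared. They hold most of mt-Atp8, between a part ending at chrM:7693 and one starting at chrM:7927. That gene is therefore counted as wholly copied by its position only. The pieces below, all from GENCODE M21 transcripts on GRCm38 and written 5′ to 3′, show how close the copies are. The first 90 bases of mt-Co2 (chrM:7013-7102, plus strand) have no mismatch to the chromosome 1 copy Gm28661 (chr1:24615476-24615565, minus strand). The chromosome 2 copy Gm13341 (chr2:22587873-22587962, minus strand) differs at the 2 bases in capitals.
mt-Co2: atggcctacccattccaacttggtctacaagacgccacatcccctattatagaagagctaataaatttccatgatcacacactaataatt
Gm28661: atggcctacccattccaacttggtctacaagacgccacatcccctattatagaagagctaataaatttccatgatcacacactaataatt
Gm13341: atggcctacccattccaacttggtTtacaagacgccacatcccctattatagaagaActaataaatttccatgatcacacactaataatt

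The 2 edges of the copied stretch, as annotated, fall inside genes. In mt-Nd4 the edge is where the annotated copy ends, and chromosome 1 beyond it was not searched. The edges are shown for mt-Co1 (bases 1033 to 1092, chrM:6360-6419, plus strand) and mt-Nd4 (bases 847 to 906, chrM:11013-11072, plus strand). Bases also held by the annotated copy are in capitals.
mt-Co1: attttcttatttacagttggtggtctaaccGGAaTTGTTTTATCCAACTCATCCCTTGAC
mt-Nd4: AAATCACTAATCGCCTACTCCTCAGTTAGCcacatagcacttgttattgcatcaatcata

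Over its 483 shared bases mt-Co1 differs from the copy Gm29216 by a single substitution, A1066T, counted from base 1 at the gene's 5′ end with the mitochondrial base first. The start of mt-Nd3 (chrM:9459-9518, plus strand) differs from the copy Gm28438 (chr1:24613060-24613119, minus strand) by T3C, in capitals.
mt-Nd3: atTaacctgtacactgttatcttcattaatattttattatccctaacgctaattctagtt
Gm28438: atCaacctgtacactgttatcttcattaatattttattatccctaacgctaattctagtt

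For mt-Nd4l (chrM:9877-9936, plus strand) the first 60 bases and those of the copy Gm10222 (chr1:24612641-24612700, minus strand) are the same.
mt-Nd4l: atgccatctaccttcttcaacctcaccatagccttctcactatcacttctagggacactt
Gm10222: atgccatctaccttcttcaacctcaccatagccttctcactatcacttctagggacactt

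The mRNAs fell into 2 ranges of level that follow this map. FPKM counts fragments against transcript length and library size, so it is a level per length and allows genes to be compared. The 6 mRNAs wholly inside the copied stretch (mt-Co2, mt-Atp8, mt-Atp6, mt-Co3, mt-Nd3 and mt-Nd4l) had 0 to 13.3 FPKM over the 4 libraries. The 7 others (mt-Nd1, mt-Nd2, mt-Co1, mt-Nd4, mt-Nd5, mt-Nd6 and mt-Cytb) had 62.6 to 11742 FPKM. The ranges did not overlap in any library. In Th0 2 the levels correspond to about 91594 fragments for mt-Co1 and about 20 for its neighbour mt-Co2, on an estimate of 0.156 FPKM for 1 fragment on a 1 kb transcript. Of the 7 copies in this stretch, 1 (Gm10222) is among the listed genes, and its FPKM equalled that of mt-Nd4l to the last digit in all 4 libraries. The assignment of reads that match both places was not given in the sources used here, and its part in these low values was not tested. The 7 mRNAs not wholly copied therefore carry the comparison with dopamine, a choice made after the levels were seen.

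**Figure D1:**
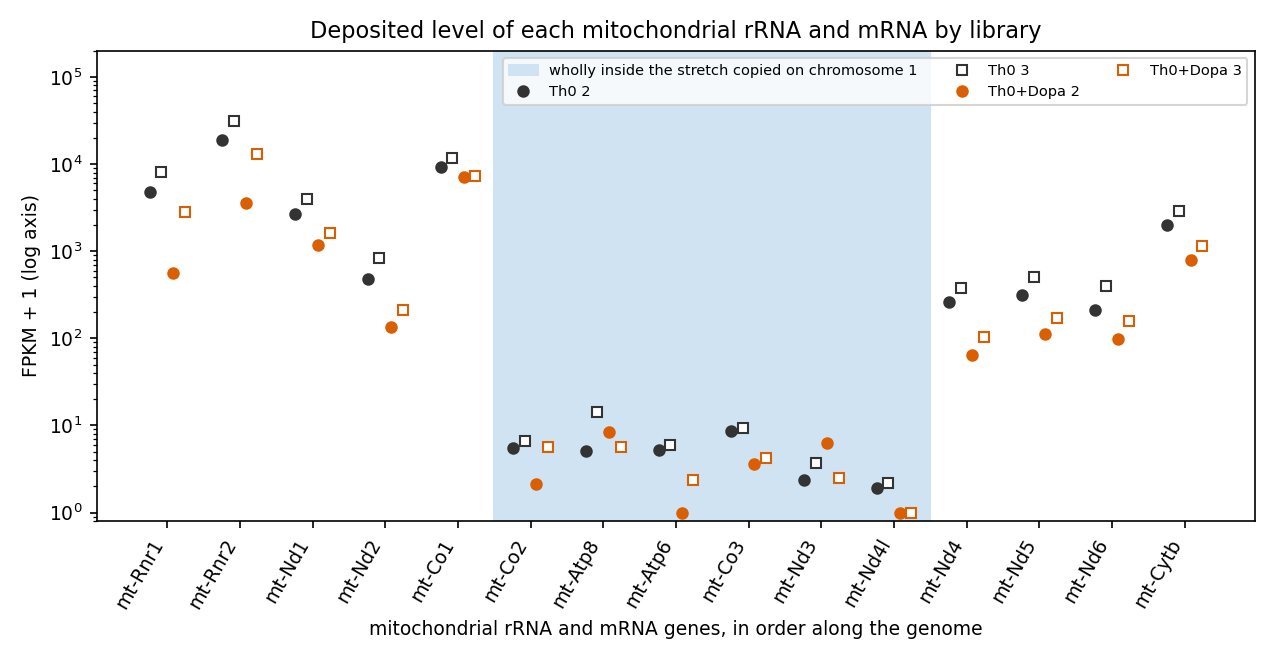
FPKM + 1 on a log axis for each mitochondrial rRNA and mRNA, in genome order; each point is 1 library (circles, libraries numbered 2; squares, libraries numbered 3; black, Th0; orange, Th0+Dopa). The 6 genes in the shaded stretch lie between 0 and 13.3 FPKM, and the 7 other mRNAs lie between 62.6 and 11742 FPKM.

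With dopamine, 6 mRNAs of complexes I and III fell by 2.21-fold to 4.16-fold. Differences were taken within each of the 2 separately made tables, as log2(FPKM + 1) in Th0+Dopa minus Th0, and tested with limma over 11423 genes. A Benjamini-Hochberg adjusted p under 0.05 is called here. Of 12 mRNAs tested, 8 were called lower and 0 higher, with a median difference of -1.22. At an unadjusted limma p under 0.05 the counts were 9 and 0, against 12.2% lower and 15.7% higher over all tested genes. Of the 7 not wholly copied, 6 were called lower and 0 higher. Over all tested genes 4.39% were called lower and 6.28% higher, 10.7% in all, with a median of 0.03. In 9 of the 12 the 2 dopamine libraries lay below both Th0 libraries, as in 25.6% of all tested genes. With no replicate block 3 of the 12 were called lower, and with any 1 library left out 0. After a correction for GC content and length the median was -0.58 with 5 called lower, and with the correction fitted on nuclear protein-coding genes it was -0.55 with 4 called lower and 2 (mt-Atp8 and mt-Nd3) called higher. In such bulk values, fewer cells of a type and less RNA per cell cannot be told apart.

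Complex I, which passes electrons from NADH to ubiquinone, has 7 mitochondrially encoded subunits, of which 5 are outside the copied stretch or only partly in it. For mt-Nd4 (ENSMUSG00000064363, chrM:10167-11544, plus strand), a membrane-arm subunit, FPKM was 261 (Th0 2) and 62.6 (Th0+Dopa 2) in the first table and 379 (Th0 3) and 102 (Th0+Dopa 3) in the second. Both dopamine libraries lay below both Th0 libraries, 4.16-fold in the first table and 3.71-fold in the second. The limma difference was -1.96 ± 0.11 (SE; adjusted p = 0.000827), and at least 63.6% of the gene lies in the copied stretch. GC correction gave -1.08, still called. The group means across the separately made tables were 320 ± 83.3 FPKM (SD, n = 2) in Th0 and 82.4 ± 27.9 (SD, n = 2) with dopamine.

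For mt-Nd2 (ENSMUSG00000064345, chrM:3914-4951, plus strand), another membrane-arm subunit, FPKM was 477 (Th0 2) and 133 (Th0+Dopa 2) in the first table and 839.7 (Th0 3) and 209.8 (Th0+Dopa 3) in the second. Its libraries separated in the same way, 3.58-fold and 4.00-fold lower with dopamine (limma difference -1.91 ± 0.11, adjusted p = 0.000934). For mt-Nd5 (ENSMUSG00000064367, chrM:11742-13565, plus strand), the largest of these subunits, FPKM was 314, 110.4, 507 and 172 in the order Th0 2, Th0+Dopa 2, Th0 3, Th0+Dopa 3. It was 2.84-fold and 2.94-fold lower with dopamine, again without overlap (limma difference -1.53 ± 0.10, adjusted p = 0.00143). The call of mt-Nd5 ended with no replicate block (limma adjusted p = 0.0588). After GC correction mt-Nd2 was at -0.82 and mt-Nd5 at -1.07, both still called.

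The first mRNA gene after the rRNAs, mt-Nd1 (ENSMUSG00000064341, chrM:2751-3707, plus strand), encodes the subunit that joins the peripheral and membrane arms. In the same order its FPKM was 2639, 1181, 3937 and 1632, the highest level among the complex I mRNAs not wholly copied. It was 2.23-fold and 2.41-fold lower with dopamine (limma difference -1.21 ± 0.13, adjusted p = 0.00647). The call ended with no replicate block (limma adjusted p = 0.0725), without the trend in the variance prior (0.0546) and with the GC correction fitted on nuclear protein-coding genes (-0.51, adjusted p = 0.0665), while the other GC correction gave -0.49 (adjusted p = 0.0367). The ratio of mt-Nd1 to mt-Nd2 was 5.53 and 4.69 in Th0 2 and Th0 3 and 8.86 and 7.78 in Th0+Dopa 2 and Th0+Dopa 3, so the drop of mt-Nd2 was the larger in both tables.

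The only mRNA encoded on the other strand is mt-Nd6 (ENSMUSG00000064368, chrM:13552-14070, minus strand). Its FPKM was 213 (Th0 2) and 96.4 (Th0+Dopa 2) in the first table and 399 (Th0 3) and 158 (Th0+Dopa 3) in the second. Dopamine libraries were 2.21-fold and 2.53-fold lower and did not overlap with Th0 (limma difference -1.23 ± 0.11, adjusted p = 0.00349). The call ended after GC correction (-0.002, limma adjusted p = 0.993), with no replicate block (0.123) and without the trend (0.0557). Its ratio to mt-Nd5, whose 3′ end it overlaps, was 0.678 and 0.788 in Th0 2 and Th0 3 and 0.873 and 0.915 with dopamine. The library kit keeps strand, but its use in counting was not given in the sources used here. Reads from the opposite transcript therefore cannot be told apart.

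Complex III, which passes electrons from ubiquinol to cytochrome c, has a single mitochondrially encoded subunit, cytochrome b. For mt-Cytb (ENSMUSG00000064370, chrM:14145-15288, plus strand), FPKM was 1989.8 (Th0 2) and 783 (Th0+Dopa 2) in the first table and 2872 (Th0 3) and 1142 (Th0+Dopa 3) in the second. Both tables gave nearly the same drop, 2.54-fold and 2.52-fold (limma difference -1.34 ± 0.12, adjusted p = 0.00377). No other tested mRNA had tables this close. The call ended with no replicate block (limma adjusted p = 0.0588), and GC correction gave -0.90 (adjusted p = 0.0118).

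The mRNA for the catalytic subunit of complex IV, the oxidase that reduces oxygen, did not pass the test. It had the highest FPKM among the mRNAs not wholly copied. For mt-Co1 (ENSMUSG00000064351, chrM:5328-6872, plus strand), FPKM was 9248 (Th0 2) and 7095 (Th0+Dopa 2) in the first table and 11742 (Th0 3) and 7214 (Th0+Dopa 3) in the second. Both dopamine libraries were below both Th0 libraries, by 1.30-fold and 1.63-fold, with a limma difference of -0.54 ± 0.19 (adjusted p = 0.140). It was called lower when libraries were scaled to a common sum of FPKM (-0.80, limma adjusted p = 0.000543) or of nuclear protein-coding FPKM (-0.70, adjusted p = 0.00276). Those scalings move the median of all tested genes to -0.20 and -0.11, and the split of calls from 717 higher and 501 lower to 376 and 1064, and to 429 and 695. Its copied part is 31.3% of the gene.

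**Figure D2:**
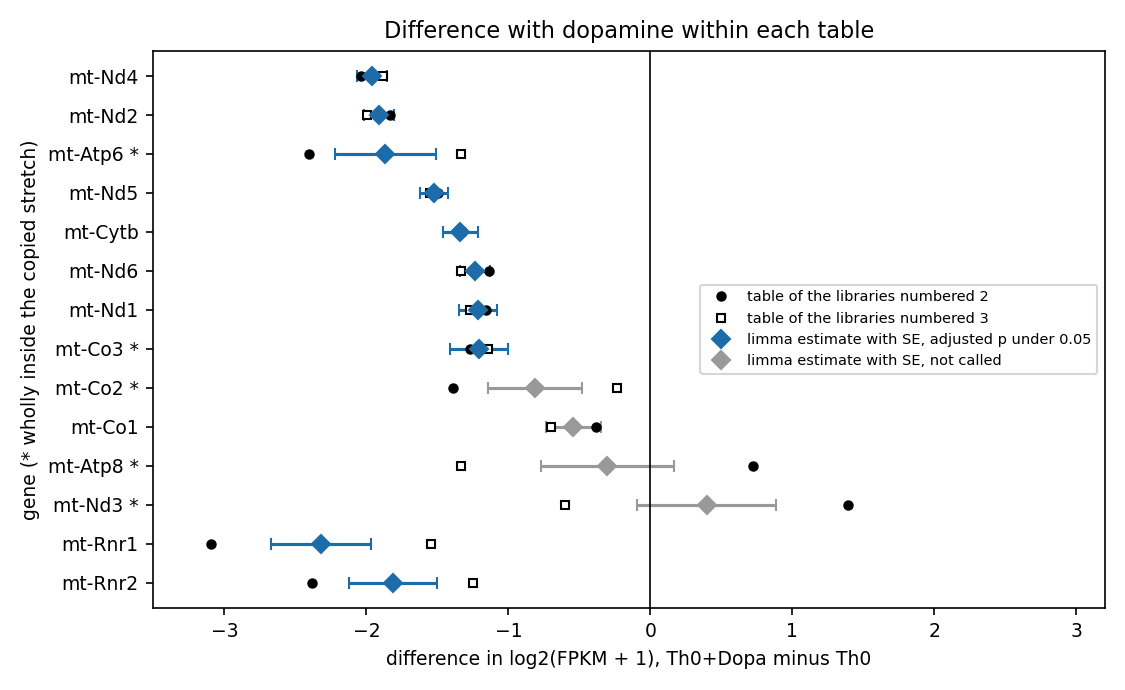
Difference in log2(FPKM + 1), Th0+Dopa minus Th0, for the 12 tested mRNAs and 2 rRNAs; black circles and open squares are the 2 tables, diamonds the limma estimate with its standard error, blue where the adjusted p is under 0.05. The 6 called mRNAs without an asterisk range from -1.96 to -1.21, mt-Co1 is at -0.54, and the tables lie farthest apart for the rRNAs and some copied genes.

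The makeup of the mRNA pool, as listed, differed between the groups. mt-Co1 was 61.0% and 56.7% of the summed FPKM of the 13 mRNAs in Th0 2 and Th0 3, and 74.9% and 67.8% in Th0+Dopa 2 and Th0+Dopa 3. The within-table rise was 13.9 and 11.1 percentage points, 12.5 ± 1.97 (SD, n = 2). This share does not depend on how libraries are scaled, but no GC correction was applied to it. The 6 wholly copied mRNAs summed to 22.9 (Th0 2), 16.4 (Th0+Dopa 2), 36.3 (Th0 3) and 15.4 FPKM (Th0+Dopa 3). As their level is not read, these are in effect shares of the 7 other mRNAs, not of the whole pool. The summed FPKM of the 5 mRNAs with no copied base (mt-Nd1, mt-Nd2, mt-Nd5, mt-Nd6 and mt-Cytb) was 5632, 2305, 8554 and 3313 in the order Th0 2, Th0+Dopa 2, Th0 3, Th0+Dopa 3. The ratio of mt-Co1 to that sum was 1.64 and 1.37 in Th0, and 3.08 and 2.18 with dopamine. An exact permutation test of 2 against 2 libraries cannot give a two-sided p below 0.333, and no test was run on these shares and ratios.

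**Figure D3:**
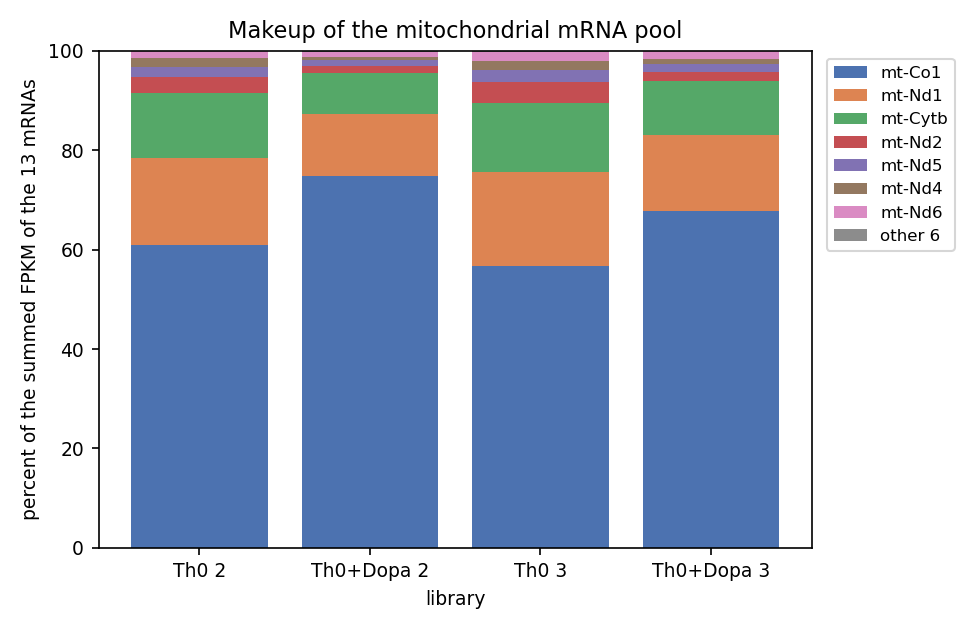
Percent of the summed FPKM of the 13 mitochondrial mRNAs taken by each mRNA, as a stacked bar for each library; the 6 wholly copied mRNAs are summed as other 6. mt-Co1 takes 61.0% (Th0 2) and 74.9% (Th0+Dopa 2) in the first table and 56.7% (Th0 3) and 67.8% (Th0+Dopa 3) in the second. The level of the 6 wholly copied mRNAs is not read, so these are in effect shares of the 7 others.

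The mRNAs wholly inside the copied stretch are given as listed, with no reading of their level. mt-Co3 (chrM:8607-9390, complex IV) had 7.66, 2.58, 8.40 and 3.25 FPKM in the order Th0 2, Th0+Dopa 2, Th0 3, Th0+Dopa 3 and was called lower (limma difference -1.21 ± 0.20, adjusted p = 0.0232). mt-Atp6 (chrM:7927-8607), a subunit of the proton channel of ATP synthase, had 4.29, 4.99 and 1.38 FPKM in Th0 2, Th0 3 and Th0+Dopa 3 and was listed at 0 in Th0+Dopa 2. It was called lower too (limma difference -1.87 ± 0.36, adjusted p = 0.0328), with a size that depends on the pseudocount of 1. Both calls ended without the trend and after GC correction. These 2 calls rest on at most about 38 fragments a library.

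The other 4 did not separate the groups or were too low to test. mt-Co2 (complex IV) had 4.53, 1.11, 5.67 and 4.68 FPKM (limma difference -0.81, adjusted p = 0.184). mt-Nd3 (complex I) had 1.38, 5.25, 2.74 and 1.46 (0.40, limma adjusted p = 0.648), and its 2 tables differed in sign. The GC correction fitted on nuclear protein-coding genes gave 2.52 (limma adjusted p = 0.0304) and the other 1.43 (adjusted p = 0.191). mt-Nd4l (complex I) was listed at 0.907 and 1.19 in Th0 2 and Th0 3 and at 0 in both dopamine libraries, under the filter of a mean of 1 FPKM.

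The genes mt-Atp8 and mt-Atp6 share 43 bases, in capitals below at the end of mt-Atp8 (bases 132 to 204, chrM:7897-7969, plus strand), so their fragments can be split between them.
mt-Atp8: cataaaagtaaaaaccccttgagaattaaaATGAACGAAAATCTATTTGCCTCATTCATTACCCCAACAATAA
For mt-Atp8, FPKM was 4.11, 7.45, 13.3 and 4.66 (limma difference -0.30, adjusted p = 0.720), higher with dopamine in the first table and lower in the second. The GC correction fitted on nuclear protein-coding genes gave 2.02 (limma adjusted p = 0.0206) and the other 0.004 (adjusted p = 0.998).

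Less similar nuclear copies are listed as genes of their own. Gm13340 on chromosome 2 (97.6% identical to mt-Co1 over 1545 bases) had 13.8, 6.08, 13.4 and 8.35 FPKM in the order Th0 2, Th0+Dopa 2, Th0 3, Th0+Dopa 3. It was called lower (limma difference -0.84, adjusted p = 0.0453). Gm11512 on chromosome 11 (90.7% identical to part of mt-Co1; -0.50, limma adjusted p = 0.266) and Gm13341 (95.9% identical to mt-Co2; -0.45, adjusted p = 0.380) were not. Reads of these genes and of their mitochondrial source may be split between them, so all 3 values are uncertain.

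The rRNAs of the mitochondrial ribosome fell more in the first table than any mRNA not wholly copied. The kit depletes mitochondrial rRNA, so their FPKM is what depletion left. For mt-Rnr1, the 12S rRNA of the small subunit (ENSMUSG00000064337, chrM:70-1024, plus strand), FPKM was 4826.5 (Th0 2) and 565 (Th0+Dopa 2) in the first table and 8208 (Th0 3) and 2809 (Th0+Dopa 3) in the second. For mt-Rnr2, the 16S rRNA of the large subunit (ENSMUSG00000064339, chrM:1094-2675, plus strand), it was 18749.9, 3601, 31255 and 13154 in the same order. Neither gene's groups overlapped, and Th0+Dopa 2 was the lowest library for both.

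The 12S rRNA was 8.54-fold lower with dopamine in the first table and 2.92-fold in the second (limma difference -2.32 ± 0.35, adjusted p = 0.0167). The 16S rRNA was 5.21-fold and 2.38-fold lower (limma difference -1.81 ± 0.31, adjusted p = 0.0243). Both were called, against the 4.39% of all tested genes called lower. Their ratio, 16S to 12S, was 3.88 and 3.81 in Th0 2 and Th0 3, and 6.37 and 4.68 in Th0+Dopa 2 and Th0+Dopa 3. As a share of all FPKM, Th0+Dopa minus Th0, the rRNAs differed by -2.96 and -3.51 percentage points and the mRNAs by -1.13 and -1.56. The calls of both rRNAs ended with no replicate block and without the trend in limma's variance prior (adjusted p = 0.148 and 0.0936 for 12S, 0.174 and 0.0921 for 16S). They also ended after a correction for GC content and length (12S, -1.22, limma adjusted p = 0.134; 16S, -1.05, adjusted p = 0.0933).

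Whether rRNA moved with mRNA differed between the tables. The ratio of summed rRNA to the 5 mRNAs with no copied base was 4.19 in Th0 2 and 1.81 in Th0+Dopa 2, but 4.61 in Th0 3 and 4.82 in Th0+Dopa 3. In the second table the rRNAs and these mRNAs were thus lower by like amounts, 2.47-fold and 2.58-fold. In the first the rRNAs were 5.66-fold and the mRNAs 2.44-fold lower. The ratio to all 13 mRNAs was 1.55 and 0.440 in the first table and 1.91 and 1.50 in the second. How well each library was depleted of rRNA was not tested.

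All 22 tRNAs, 59 to 75 bases long, were listed at 0 in all 4 libraries, so none could be compared. mt-Tl1, a leucine tRNA, is shown because it fills the gap between the 16S rRNA and mt-Nd1, both among the highest genes (chrM:2676-2750, plus strand).
mt-Tl1: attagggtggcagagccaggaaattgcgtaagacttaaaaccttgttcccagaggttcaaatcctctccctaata
Of 485 other listed genes in this range of length, 1 was above 0 in any library. The zeros are thus shared by nearly all genes this short and say nothing of tRNA levels.

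Of the nuclear genes for subunits of the same complexes, 24 rose. Out of 71 listed subunits of complexes I, III and IV and ATP synthase, all tested, limma called 24 higher and 0 lower (41 and 4 at an unadjusted p under 0.05, where all tested genes gave 15.7% and 12.2%), 33.8% against 10.7% over all tested genes, with a median difference of 0.37 against 0.03. By complex, the calls higher were 8 of 36 for complex I, 6 of 9 for complex III, 4 of 11 for complex IV and 6 of 15 for ATP synthase. With libraries scaled to a common sum the counts were 14 higher and 5 lower, and with any 1 library left out, or without the trend in the variance prior, 0 were called.

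Among them Uqcrq, a small subunit of complex III, had 108, 313, 102 and 246 FPKM in the order Th0 2, Th0+Dopa 2, Th0 3, Th0+Dopa 3 (limma difference 1.39 ± 0.11, adjusted p = 0.00298). Atp5e, the epsilon subunit of ATP synthase, had 152, 384, 128 and 276 (limma difference 1.22 ± 0.11, adjusted p = 0.00372). Ndufb6, an accessory subunit of complex I, had 70.6, 151, 67.5 and 128 (limma difference 1.00 ± 0.11, adjusted p = 0.00625). In each of these 3 genes both dopamine libraries lay above both Th0 libraries, as in 31.4% of all tested genes. They were named for the largest calls of their complexes, so this separation follows largely from that choice. The other genes named by the same rule, which takes limma calls only, were Uqcr11 (1.19), Atp5g3 (0.96), Ndufb11 (0.90), Cox4i1 (0.62) and Cox5b (0.60), all higher.

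Set against the nuclear subunits of its own complex, mitochondrial mRNA was lower with dopamine in every complex that could be followed. For complex I, the summed FPKM of mt-Nd1, mt-Nd2, mt-Nd5 and mt-Nd6 over that of 36 nuclear subunits was 1.05 (Th0 2) and 0.331 (Th0+Dopa 2) in the first table and 1.69 (Th0 3) and 0.554 (Th0+Dopa 3) in the second. For complex III, mt-Cytb over 9 nuclear subunits gave 1.25, 0.307, 1.83 and 0.548 in that order. For complex IV, mt-Co1 over 11 nuclear subunits gave 2.73, 1.61, 3.42 and 1.96. Partly copied mt-Nd4 was left out of the complex I sum, while mt-Co1, also partly copied, was used for complex IV. The groups did not overlap in any of these ratios, which do not depend on library scaling and were not tested. They were not corrected for GC content or length. After GC correction the limma differences were -0.49 (mt-Nd1), -0.82 (mt-Nd2), -1.07 (mt-Nd5), -0.002 (mt-Nd6), -0.90 (mt-Cytb) and -0.22 (mt-Co1). The nuclear subunits, ATP synthase included, then had a median of 0.29, against 0.37 without it. The part of GC content in the ratios was not tested. Taken singly, 25.6% of all tested genes did not overlap with dopamine lower, and 31.4% with dopamine higher.

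**Figure D4:**
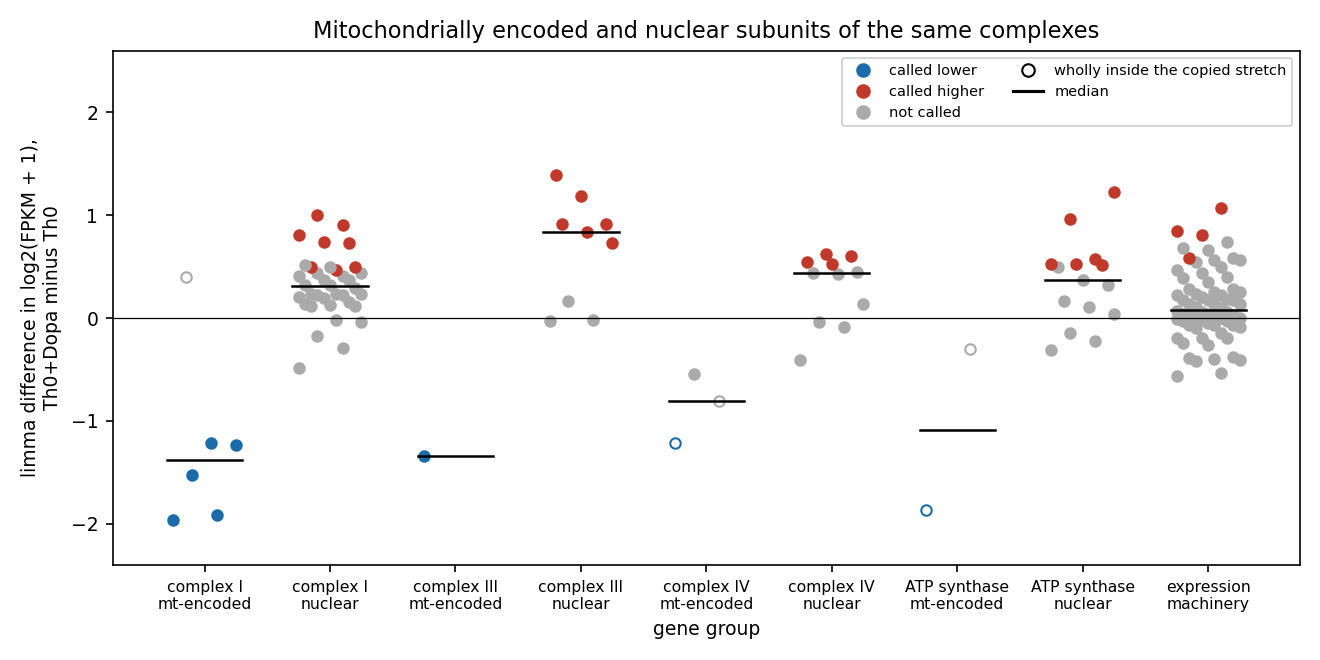
Limma difference in log2(FPKM + 1), Th0+Dopa minus Th0, of each tested gene (points) by group, with the group's median as a bar; blue, called lower; red, called higher; grey, not called; open, wholly inside the copied stretch. Mitochondrially encoded complex I and III mRNAs not wholly copied lie between -1.96 and -1.21, while nuclear subunits have medians of 0.31 (complex I), 0.84 (complex III), 0.44 (complex IV) and 0.37 (ATP synthase).

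Nuclear genes for mitochondrial RNA, mitochondrial DNA replication and their regulation were called higher at a share near that of all tested genes. Of 70 such genes listed, 68 were tested, 4 were called higher and 0 lower by limma, with a median of 0.08. The 4 are 5.88%, against 6.28% called higher and 4.39% lower over all tested genes (10.7% in all). At an unadjusted limma p under 0.05, 16 of the 68 were higher and 5 lower, against 15.7% and 12.2% over all tested genes. The calls were 1 of 9 transcription genes, 0 of 8 for mitochondrial DNA replication, 1 of 20 for RNA processing and stability, 0 of 13 for rRNA modification, 1 of 10 for tRNA modification and 1 of 8 regulators. All 4 calls were lost under both common-sum scalings, where 3 and 1 other list genes were called lower, and with any 1 library left out.

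Polrmt, the mitochondrial RNA polymerase, had 6.69, 12.8, 5.38 and 9.86 FPKM in the order Th0 2, Th0+Dopa 2, Th0 3, Th0+Dopa 3 (limma difference 0.81 ± 0.17, adjusted p = 0.0420). Its partners showed no call: Tfam, which packages mitochondrial DNA and starts transcription, was at -0.09 (limma adjusted p = 0.691) and Tfb2m at -0.07 (adjusted p = 0.854). Lrpprc and Slirp, which bind and stabilise mitochondrial mRNA, were at -0.07 (limma adjusted p = 0.758) and 0.28 (adjusted p = 0.147).

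The other 3 calls were each in a separate role. Hsd17b10, a subunit of the RNase P that cuts tRNAs from the precursor, rose (limma difference 0.58 ± 0.10, adjusted p = 0.0273). Gtpbp3, which modifies mitochondrial tRNAs, had 9.99, 22.9, 9.03 and 14.0 FPKM in the same order of libraries (0.85 ± 0.18, limma adjusted p = 0.0442). Esrra, a nuclear receptor that drives mitochondrial genes, had 4.33, 8.53, 3.21 and 9.40 (1.07 ± 0.21, limma adjusted p = 0.0365). The coactivators Ppargc1a and Ppargc1b were under the filter, and Pprc1 was at 0.39 (limma adjusted p = 0.515), with tables of opposite sign.

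The members are low in GC content, and markers of some other cell types were lower with dopamine. GC content of the 14 tested members was 31.9% to 39.9%, against a median of 50.3% over 10136 tested nuclear protein-coding genes. The 299 of those under 40% GC had a median difference of -0.19, against 0.02 over all of them. Nuclear protein-coding genes within 2 points of GC and 0.5 log2 units of length had medians of -0.18 for mt-Cytb (105 genes), -0.24 for mt-Nd5 (65 genes), -0.26 for mt-Nd1 (35 genes) and -0.05 for mt-Co3 (33 genes). The medians were -0.34 for mt-Nd2 (10 genes), -0.48 for mt-Nd4 (10 genes), -0.53 for mt-Rnr2 (10 genes) and -0.59 for mt-Rnr1 (13 genes). For mt-Nd6 (8 genes, -2.69) and mt-Atp6 (9 genes, -2.55) they were below the members' own differences.

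The GC correction named above was a loess fit of each table's differences on GC content and length, in the fit with the replicate block. It left mt-Nd4 (limma adjusted p = 0.0101), mt-Nd5 (0.00895), mt-Cytb (0.0118), mt-Nd2 (0.0149) and mt-Nd1 (0.0367) called lower. The calls of mt-Nd6, mt-Rnr1, mt-Rnr2, mt-Co3 and mt-Atp6 ended, and mt-Nd6 was at 0.56 (limma adjusted p = 0.126) when the correction was fitted on nuclear protein-coding genes only. Few nuclear genes share the composition of the members, so this correction rests on few genes there. Fits with a library left out also differ from the main fit in scaling, which was by median of ratios. With each library left out in turn, in fits with no block, none of the 6 mRNAs and 2 rRNAs kept a call. Their limma adjusted p ran from 0.145 to 0.396 without Th0 2, 0.218 to 0.459 without Th0+Dopa 2, 0.299 to 0.644 without Th0 3 and 0.133 to 0.192 without Th0+Dopa 3, and all 8 differences stayed below 0.

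The labelled cell type was checked by its markers. The 12 CD4 T cell genes summed to 1964 and 2036 FPKM in Th0 2 and Th0 3 and to 2092 and 2013 with dopamine. Of them limma called Cd3d (0.48), Cd5 (0.96), Cd6 (0.84) and Zap70 (0.46) higher and Trac (-0.70) lower. Among all tested genes 6.28% were called higher and 4.39% lower. CD8 T cell (3.95 to 6.39), B cell (2.45 to 5.26), NK (0 to 0.771, Ncr1 at 0) and erythroid (1.00 to 1.76, Hba-a2 at 0) sums were low in all libraries. Macrophage and dendritic cell markers were called lower in 9 of 10 tested genes of 12, with sums of 220 and 290 FPKM in Th0 against 30.4 and 29.2 with dopamine. Granulocyte and mast cell markers were called lower in 8 of 8 tested of 12, with sums of 449 and 596 against 50.4 and 46.7. For both lists the share called lower over all tested genes was 4.39%. No marker of either list was at 0 in all libraries. The part of these cells in the drop of mitochondrial transcripts was not tested.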

How the data were processed

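Gene levels came from 4 libraries in 2 tables, which the authors deposited as FPKM, made separately for the libraries numbered 2 and 3. The submitters' processing notes list the build mm10, Cufflinks 2.2.1 and STAR 2.4.2, beside Trimmomatic 0.35, FastQC 0.10.1 and bcl2fastq 1.8.4. Annotation release, normalization options, handling of reads with several matches and use of strand were not given in the sources used here. As the labels' protocols state, total RNA was treated with DNase and made into stranded libraries depleted of cytoplasmic and mitochondrial rRNA and globin mRNA.

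GENCODE M21 (GRCm38) named 36423 of 38282 IDs. Genes with a mean of at least 1 FPKM (11423) were tested on log2(FPKM + 1) with limma 3.58.1 in R 4.3.3 (two-sided, eBayes with trend, the table as a block, Benjamini-Hochberg adjustment over all tested genes, 0.05). Fold changes of low genes are understated on this scale. The fit left 1 residual degree of freedom for each gene, beside a prior of 4.7 drawn from all tested genes. The block was used because the tables were made apart; no label ties a number to an animal or culture.

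Depth was estimated from low values of transcripts of at least 1500 bases, of which 87.8% to 89.0% lay within 0.15 fragment of a whole number. The worth of a fragment was chosen from these same values. The 30% reached by chance with a worth fixed beforehand is therefore no measure for it. A fragment on 1 kb was worth 0.156, 0.159, 0.207 and 0.159 FPKM in Th0 2, Th0+Dopa 2, Th0 3 and Th0+Dopa 3. Normalization could also move these values.

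Members and lists were chosen with earlier results of these data known. The split by the chromosome 1 copy, the ratios to uncopied or nuclear genes and a GC correction fitted on nuclear protein-coding genes were chosen after seeing the data. Named genes were all 13 mRNAs and 2 rRNAs, the machinery calls and 8 set regulators, the 2 largest calls per nuclear complex, and annotated nuclear copies (90% identity over 200 bases) with a mean of at least 1 FPKM. Gm28661, Gm28438, Gm10222 and Gm29216 were added for their sequences, after values were seen. Alternatives changed the pseudocount, filter, scaling, block, trend, GC and length correction (loess, span 0.3) and libraries. Fits with a library left out had no block and used median of ratios scaling. The limma script was tested on simulated data. Sequences are from GENCODE M21 transcripts. A list of residual cytosolic rRNA genes was not analysed here.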

Additional observations from a re-analysis of the deposited data

How the results depend on the processing

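The count of mRNAs called lower (8 main) was 3 with no replicate block, 4 without trend, 5 with the replicate block and GC and length correction and 4 with that correction fitted on nuclear protein-coding genes, which called 2 higher. For the 7 mRNAs not wholly copied (6 main) it was 2 with no replicate block, 4 without trend and 7 with either common sum. It was 5 with the GC and length correction and 4 with that correction fitted on nuclear protein-coding genes. For the rRNAs (2 main) it was 1 with no filter on low values and 0 with no block, without trend or with either GC correction. Pairing rests on the table alone: there are 2 pairs, and nothing in the labels ties a number to an animal or culture. Leaving out 1 library gave 0 calls for the mRNAs, rRNAs and both nuclear lists in all 4 fits, which assume that a lone library varies like the others. Over all genes these fits gave 0 to 13 higher and 0 to 9 lower, against 717 and 501 in the reported fit.

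Machinery genes called higher (4 main) were 8 with a pseudocount of 0.1, 2 with 5, 1 with no filter, 8 with a mean of at least 5 FPKM, 1 with either GC correction and 0 with either common sum, no block or no trend; 3 (common sum) and 1 (nuclear protein-coding sum) were called lower. Nuclear subunits called higher (24 main) were 14 and 15 under those sums, 7 with no block, 0 without trend and 13 with the GC correction fitted on nuclear protein-coding genes; 5, 3 and, with a pseudocount of 0.1, 1 were called lower. All-gene calls were 442 higher and 298 lower with no filter, 376 and 1064 with the common sum, 429 higher with the nuclear protein-coding sum, 256 and 240 with no block, 106 and 150 without trend, 442 higher with the GC correction, and 304 and 235 with it fitted on nuclear protein-coding genes. The rRNA share differed by -3.82 points without small RNA genes and by -3.84 over protein-coding genes and mitochondrial rRNAs, against -3.23.

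Signs changed for mt-Nd6 (0.56, the GC correction fitted on nuclear protein-coding genes), for mt-Atp8 (0.004 and 2.02 with the 2 GC corrections, limma adjusted p = 0.998 and 0.0206, -1.06 to 0.41 with a library left out) and for mt-Nd3 (-0.30 to 1.06 with a library left out; 1.43 and 2.52 with the 2 GC corrections, limma adjusted p = 0.191 and 0.0304). They also changed for uncalled genes with the 2 GC corrections: Tfam (0.0693 and 0.0635), Tfb2m (0.089 and 0.0988), Lrpprc (0.0307 and 0.0344), Gm11512 (0.37 and 0.56) and Gm13341 (0.18 and 0.33). With a library left out, Tfam ran from -0.26 to 0.0312, Tfb2m from -0.25 to 0.0652 and Pprc1 from -0.29 to 1.02. The cause was not tested. The 6 wholly copied mRNAs rest on few fragments in every library.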
